A study of Mus musculus with 10 samples.

Results

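The 10 genes described here, Gja1, Cdh2, Dsp, Pkp2, Jup, Dsg2, Dsc2, Ctnna3, Tjp1 and Des, encode the main structural parts of the intercalated disc. They were chosen by name, with earlier results of these data known. Every transcript listed for them in the expression table was taken after transcript identifiers had been matched to gene symbols with GENCODE vM21. All 10 genes had at least 1 listed transcript, 20 transcripts together, out of 22157 transcripts and 11777 genes in the whole table. The tissue was myocardium of C57BL/6 mice, and each library carries its own mouse number. The 5 libraries labelled NPRA-/- (217, 227, 231, 240 and 241) came from mice in which natriuretic peptide receptor A, the cGMP-forming receptor of the heart's own peptide hormones, was deleted in heart muscle. The 5 libraries labelled NPRA+/+ (228, 230, 242, 243 and 255) came from mice that kept the receptor, which the labels call wild type and the design text calls matched littermates. The promoter that drove the deletion, the deleted part of the gene, the chambers sampled and the age of the mice are not stated by the labels.

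The intercalated disc joins cardiomyocytes end to end. Desmosomes in it couple to desmin filaments, adherens junctions couple to the actin of the last sarcomere, and gap junctions let current pass from cell to cell; in mammalian hearts desmosomal and adherens proteins mix in a structure called the area composita. Mutations in the desmosomal genes are a known cause of arrhythmogenic cardiomyopathy in people, and desmin and plakophilin 2 are needed for a normally built and normally conducting disc.

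Values were taken as FPKM, fragments scaled to transcript length and to library size, though no unit was named. FPKM values are per length, so that levels of different genes can be set side by side. They summed to between 430059 and 453122 FPKM per library; the sequencing depth is unknown. The deleted gene, Npr1, was at 4.12, 5.12, 4.30, 4.46 and 5.20 FPKM in the NPRA-/- libraries, in the order given above, and at 4.87, 5.05, 4.30, 4.46 and 4.71 FPKM in the NPRA+/+ libraries, so it did not check the labels (two-sided exact permutation p = 0.857). Genotypes below are those of the labels. All 9 general and ventricular cardiomyocyte markers were listed, at a summed 27585 to 32182 FPKM in NPRA-/- libraries and 27679 to 30379 FPKM in NPRA+/+ libraries. By mean log2(FPKM + 1), the scale of every such marker count here, 8 of the 9 were higher in NPRA-/-. The atrial light chain Myl7 divided the libraries within both genotypes: it was at 140 and 81.8 FPKM in NPRA-/- libraries 217 and 227 and at 75.4 and 73.2 FPKM in NPRA+/+ libraries 230 and 242, against at most 26.9 FPKM in the other 6. Of the 6 atrial markers 5 were listed, at a summed 299 to 666 FPKM in NPRA-/- and 238 to 870 FPKM in NPRA+/+ libraries. All 5 had a lower mean log2(FPKM + 1) in NPRA-/-. By mean FPKM, Nppa and Dkk3 were lower in NPRA-/- too, while Myl7, Sln and Myl4 were higher, with their highest values in NPRA-/- library 217. Myl7 and Sln were at 0 in NPRA-/- library 241 and NPRA+/+ library 255. Every listed marker of endothelial cells (8 of 8), fibroblasts (7 of 7), smooth muscle and pericytes (7 of 7) and macrophages (6 of 6) had a lower mean in NPRA-/- libraries, with summed levels of 247 to 312, 335 to 402, 324 to 410 and 74.6 to 87.6 FPKM, against 293 to 320, 355 to 472, 321 to 548 and 87.6 to 105 FPKM in NPRA+/+ libraries. Of all genes tested, 39.4% had a higher mean log2(FPKM + 1) in NPRA-/-. That share was 50.6% with median-of-ratios factors, while the marker counts here used values without rescaling. None of the 5 mesothelial and epithelial markers was listed. In bulk tissue, fewer cells of a type and less RNA per cell cannot be told apart, and the part of cell composition in the values below was not tested.

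The disc genes spanned a wide range of levels, each summed over listed transcripts only. Des, the muscle intermediate filament that ends at the desmosome, averaged 668 FPKM over the 10 libraries and stood above 99.5% of the 10764 genes tested. Dsp, the plakin that ties those filaments to the junction, followed with 239 FPKM, and Cdh2, the cadherin of the cardiac adherens junction, with 103 FPKM. Pkp2, a desmosomal armadillo protein, averaged 53.4 FPKM, Jup, the plakoglobin shared by desmosomes and adherens junctions, 35.6 FPKM, and Gja1, the main ventricular connexin, 35.1 FPKM. The desmosomal cadherin Dsg2 averaged 22.0 FPKM, the scaffold Tjp1, which binds connexins at the rim of gap junction plaques, 20.5 FPKM, and the cardiac alpha-catenin Ctnna3 11.3 FPKM. Lowest was Dsc2, the partner cadherin of Dsg2, with 8.67 FPKM, still above 55.1% of genes tested. All 10 genes lay above the floor of 1 FPKM set for testing in every library.

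On GRCm38, Des lies on chromosome 1 (75360329 to 75368579, plus strand), Tjp1 on 7 (65296165 to 65527781, minus), Jup on 11 (100368958 to 100397763, minus), Dsp on 13 (38151294 to 38198577, plus) and Pkp2 on 16 (16213318 to 16272712, plus). Gja1 (56377330 to 56402513, plus) and Ctnna3 (63430098 to 65003667, plus) share chromosome 10. The 3 classical and desmosomal cadherins are on chromosome 18, Dsc2 (20030633 to 20059554, minus) and Dsg2 (20558074 to 20604521, plus) in the desmosomal cadherin cluster and Cdh2 (16588877 to 16809246, minus) apart from them.

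Of the 9 pairs of neighbours in this order, 7 had a log2 ratio that differed from 0 beyond its spread between libraries. The test was a two-sided exact sign-flip test over 10 libraries, adjusted over the 9 pairs (adjusted p = 0.0035 or 0.0050). The order itself was taken from the mean levels of the same 10 libraries. Des was 2.79 times Dsp, Dsp 2.32 times Cdh2 and Cdh2 1.93 times Pkp2, each in 10 of 10 libraries. Jup and Gja1 did not pass (adjusted p = 0.582), and Jup was the higher of the pair in only 4 of 10 libraries. Dsg2 and Tjp1 did not pass either (adjusted p = 0.220), with Dsg2 higher in 7 of 10. The 7 pairs that passed also passed when any 1 library was left out. No order between genotypes enters here, since all 10 libraries were ranked together.

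**Figure D1:**
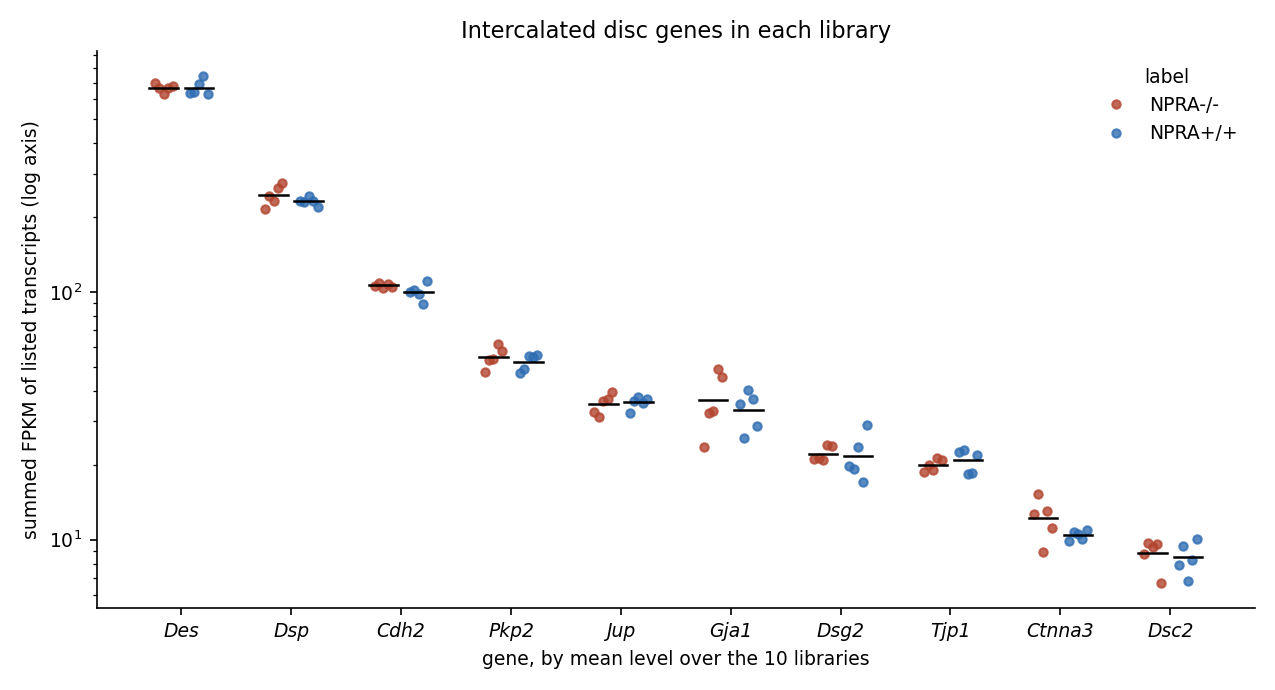
Summed FPKM of the listed transcripts of each gene (log axis) in each library, NPRA-/- left and NPRA+/+ right of each pair; points are libraries and bars are group means. Des averaged 668 FPKM and Dsc2 8.67 FPKM, and for each gene the points of the genotypes overlap.

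How much a gene varied from library to library also differed within the set. The coefficient of variation over the 10 libraries was 5.48% for Des, 6.17% for Cdh2, 7.27% for Jup, 7.70% for Dsp, 8.29% for Tjp1 and 8.57% for Pkp2, all under the median of 11% over the 6689 genes with a mean above 5 FPKM. Dsc2 (13.9%), Dsg2 (15.0%) and Ctnna3 (16.5%) lay above that median. Gja1 was the member with the highest coefficient of variation, at 23.3%. This was above that of 75.4% of all genes tested, a wider set with a median of 14.2%. The highest library of Gja1 held 2.07 times its lowest.

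No disc gene was called different between the genotypes. Among all 10764 genes tested with limma on log2(FPKM + 1), 1 was called at an adjusted p under 0.05, which is 0.00929%, and of the 10 disc genes 0 were called, with 0 at an unadjusted p under 0.05. The lowest adjusted p among them was 0.908. Their mean log2(FPKM + 1) was higher in NPRA-/- libraries for 8, Des by only 0.0016, and lower for 2. Of all genes tested, 39.4% had a higher mean on that scale. The median log2 difference was 0.056 beside -0.029 over all genes. General and ventricular cardiomyocyte markers had a like split, 8 higher and 1 lower. The split of the disc genes moved with the scaling: 9 of 10 disc genes and 50.6% of all genes were higher with median-of-ratios factors, and 7 of 10 and 35.2% with every library rescaled to the same sum. In no disc gene were the groups free of overlap, which occurred in 1.08% of all genes. The 95% intervals of Des, Dsp, Cdh2, Pkp2, Jup and Tjp1 lay inside 0.25 either way on the log2 scale, and the widest interval, that of Gja1, ran from -0.31 to 0.52.

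Of the desmosomal genes, Dsp was at 216, 244, 233, 263 and 276 FPKM in NPRA-/- libraries 217, 227, 231, 240 and 241, against 234, 230, 244, 234 and 221 FPKM in NPRA+/+ libraries 228, 230, 242, 243 and 255. The lowest and the 2 highest Dsp values were all in NPRA-/- libraries, with the NPRA+/+ libraries between them. The group means were 246 ± 24.1 FPKM in NPRA-/- and 233 ± 8.14 FPKM in NPRA+/+ (SD, n = 5 each), a log2 difference of 0.078 (SE 0.065, limma adjusted p = 0.920; two-sided exact permutation p = 0.310). That difference was 0.035 without library 241, 0.12 without library 217 and 0.16 without the 4 libraries with Myl7 above 70 FPKM. Pkp2 was at 47.6, 53.0, 53.8, 61.4 and 57.6 FPKM in NPRA-/- libraries, against 46.9, 48.7, 55.0, 54.7 and 55.7 FPKM in NPRA+/+ libraries. The same 2 NPRA-/- libraries, 240 and 241, that were highest for Dsp were highest for Pkp2, and the genotypes otherwise overlapped throughout (log2 difference 0.064, SE 0.076, limma adjusted p = 0.928; 0.022 without library 240 and 0.11 without library 217). Jup was at 32.9, 31.4, 36.3, 37.0 and 39.6 FPKM in NPRA-/- libraries, against 32.4, 36.4, 37.7, 35.7 and 36.9 FPKM in NPRA+/+ libraries. Its highest and its lowest values were both in NPRA-/- libraries, and its log2 difference of -0.018 (SE 0.071, limma adjusted p = 0.989) became 0.016 with median-of-ratios factors and 0.0025 with quantile normalization.

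The desmosomal cadherins, whose outer domains hold the cells together, were lower than the plaque proteins Dsp, Pkp2 and Jup and had larger coefficients of variation over the 10 libraries. For Dsg2 that held within NPRA+/+ (21.6%) and not within NPRA-/-. There Dsg2 had 6.94%, against 9.27% for Jup, 9.46% for Pkp2 and 9.78% for Dsp. Dsg2 was at 21.1, 21.4, 20.9, 24.0 and 23.9 FPKM in NPRA-/- libraries, against 19.9, 19.3, 23.7, 17.1 and 29.1 FPKM in NPRA+/+ libraries. The NPRA+/+ libraries held both the lowest and the highest value, and the NPRA-/- libraries lay within their range (log2 difference 0.047, SE 0.12, limma adjusted p = 0.975). Dsc2 was at 8.74, 9.72, 9.33, 9.64 and 6.72 FPKM in NPRA-/- libraries, against 7.93, 9.44, 6.79, 8.31 and 10.1 FPKM in NPRA+/+ libraries. These ranges coincided almost entirely, with a log2 difference of 0.048 (SE 0.12, limma adjusted p = 0.974).

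The adherens junction genes had the smallest unadjusted p-values of the set without passing any threshold. Cdh2 was at 106, 109, 104, 108 and 105 FPKM in NPRA-/- libraries, against 99.8, 102, 97.7, 89.1 and 111 FPKM in NPRA+/+ libraries. All 5 NPRA-/- values lay above the NPRA+/+ mean and close together, while NPRA+/+ library 255 was higher than all of them. The means were 106 ± 1.98 FPKM in NPRA-/- and 99.8 ± 7.81 FPKM in NPRA+/+ (SD, n = 5 each), a log2 difference of 0.093 (SE 0.055, 95% interval -0.028 to 0.21, limma adjusted p = 0.908; two-sided exact permutation p = 0.0952). The log2 difference of Cdh2 was 0.053 without library 243 and 0.049 with its most abundant transcript alone. Ctnna3, which links cadherins to actin and also binds plakophilin 2, was at 12.7, 15.3, 8.95, 13.1 and 11.2 FPKM in NPRA-/- libraries, against 9.87, 10.8, 10.5, 10.02 and 10.9 FPKM in NPRA+/+ libraries. The NPRA-/- libraries other than 231 all lay above every NPRA+/+ library, while 231 lay below them all. The log2 difference of Ctnna3 was 0.20 (SE 0.11, 95% interval -0.057 to 0.45, limma adjusted p = 0.908; exact permutation p = 0.135), and it moved with the libraries included: it was 0.12 without library 227, 0.086 without the 4 libraries with Myl7 above 70 FPKM, and 0.29 without library 231 (limma adjusted p = 0.955).

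Gja1 was at 23.6, 32.6, 32.9, 49.0 and 45.5 FPKM in NPRA-/- libraries, against 35.4, 25.8, 40.2, 37.0 and 28.8 FPKM in NPRA+/+ libraries. Both the lowest library (217) and the 2 highest (240 and 241) were NPRA-/-, and the group means of 36.7 ± 10.4 FPKM in NPRA-/- and 33.4 ± 5.97 FPKM in NPRA+/+ (SD, n = 5 each) differed by less than either spread. The log2 difference of Gja1 was 0.10 (SE 0.19, limma adjusted p = 0.961; exact permutation p = 0.611), and it was -0.0085 without library 240 and 0.25 without library 217. Tjp1 was at 18.8, 20.1, 19.2, 21.4 and 21.0 FPKM in NPRA-/- libraries, against 22.5, 23.0, 18.4, 18.6 and 22.0 FPKM in NPRA+/+ libraries. The NPRA+/+ values of Tjp1 fell above and below all 5 NPRA-/- values (log2 difference -0.052, SE 0.077, limma adjusted p = 0.945). Des was at 697, 666, 630, 666 and 679 FPKM in NPRA-/- libraries, against 635, 641, 692, 743 and 628 FPKM in NPRA+/+ libraries. Its means were within 1 FPKM of each other, at 668 ± 24.4 FPKM in NPRA-/- and 668 ± 49.2 FPKM in NPRA+/+, and its log2 difference of 0.0016 (SE 0.052, limma adjusted p = 0.999) was -0.011 with libraries rescaled to the same sum and -0.042 with quantile normalization.

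**Figure D2:**
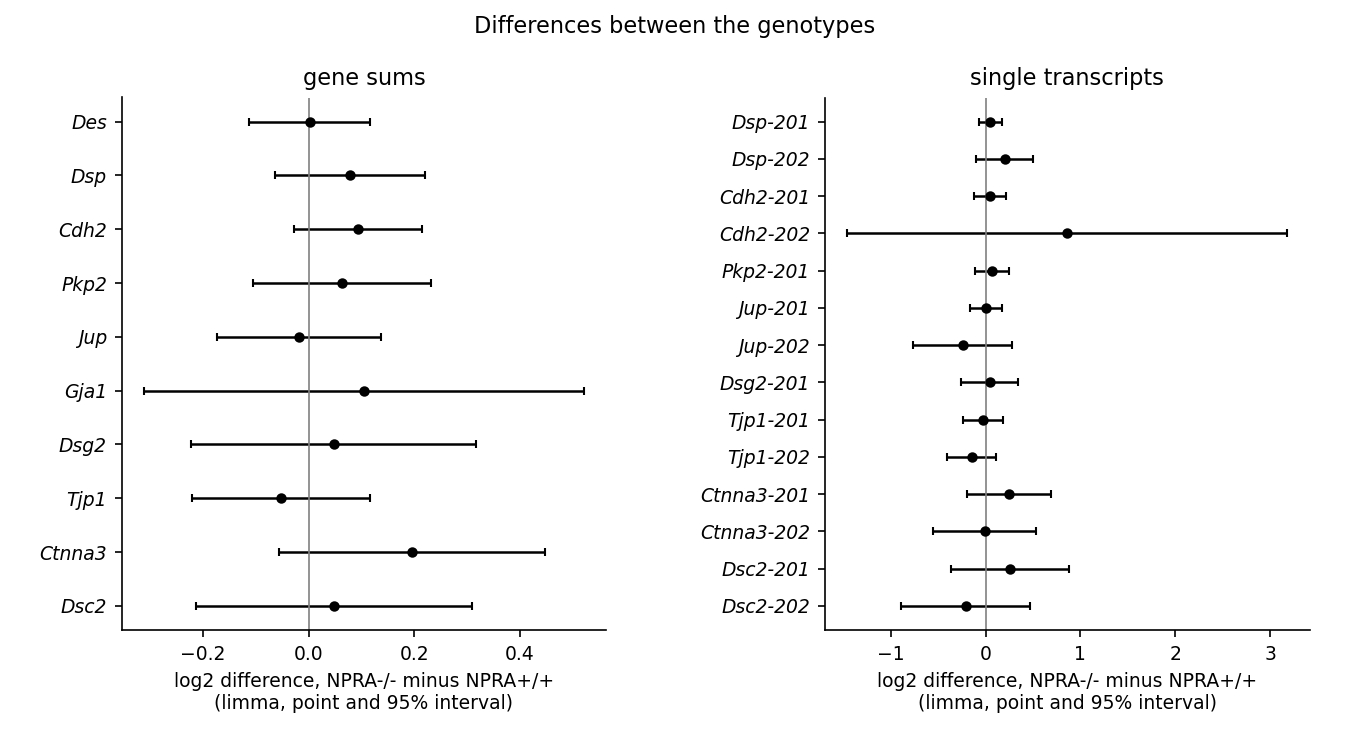
Log2 differences, NPRA-/- minus NPRA+/+, with 95% intervals from limma, for the 10 gene sums (left) and for the listed transcripts of genes with several of them that passed the floor of 1 FPKM (right). Every interval spans 0, from the narrow ones of Des and Cdh2 to that of Cdh2-202, which runs from -1.46 to 3.18.

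Of the 20 listed transcripts, 16 passed the floor and were tested, and Pkp2-202, Pkp2-203, Dsg2-203 and Dsc2-204 did not. Among all 17641 transcripts tested, 5 were called (0.0283%), and of the 16 disc transcripts 0 were called, with 0 at an unadjusted limma p under 0.05 and a lowest adjusted p of 0.903. In 0 of the 20 were the groups free of overlap, which occurred in 1.02% of all transcripts tested. Gja1 and Des had 1 listed transcript each, 6 genes had 2, and Pkp2 and Dsc2 had 3. Shares of a gene's summed FPKM were compared within libraries, where the scaling of a library has no part; transcripts that overlap share reads, so a share is an estimate and a gain of one form is a loss of another. None of 12 shares was found to differ between genotypes (two-sided exact permutation tests, lowest unadjusted p = 0.159, lowest adjusted p = 0.646).

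Dsp and Tjp1 gave splice forms that change the protein and had values above 0 in every library. The letters of both choices are printed here because they show what the shares count. In Dsp-202 the long exon 23 ends at an earlier donor site, which removes 1797 coding bases, so that 2284 codons remain of 2883; this is the form known as desmoplakin II, whose rod domain is shorter. The sequences, from GENCODE vM21 transcripts on GRCm38 (chr13:38191829-38191888, plus strand, for Dsp-201), share the lower-case bases; capitals mark what follows the donor site of Dsp-202, which is exon in Dsp-201 and the next exon in Dsp-202.
Dsp-201: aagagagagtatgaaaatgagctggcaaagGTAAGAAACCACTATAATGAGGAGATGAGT
Dsp-202: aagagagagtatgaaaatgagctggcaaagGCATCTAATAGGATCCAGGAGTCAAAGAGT
Dsp-202 made up 14.7%, 18.2%, 15.2%, 18.5% and 18.2% of Dsp in NPRA-/- libraries, against 14.7%, 14.3%, 17.4%, 15.6% and 15.4% in NPRA+/+ libraries. The short form was thus a minor part of Dsp, from 14.3% to 18.5%, and the 3 highest shares were in NPRA-/- libraries 227, 240 and 241. The means were 17.0% ± 1.87 in NPRA-/- and 15.5% ± 1.19 in NPRA+/+ (SD, n = 5 each; exact permutation p = 0.159). As a level, Dsp-202 was at 42.1 ± 8.25 FPKM in NPRA-/- and 36.0 ± 3.78 FPKM in NPRA+/+, a log2 difference of 0.20 (SE 0.13, limma adjusted p = 0.903), and Dsp-201 at 204 ± 16.3 FPKM in NPRA-/- and 196 ± 5.48 FPKM in NPRA+/+.

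Tjp1-202 carries an additional exon of 240 bases, 80 codons, exon 20 on the minus strand (chr7:65314093-65314332, GRCm38), which encodes the alternatively spliced alpha region of this scaffold; it also lacks 60 coding bases that Tjp1-201 has elsewhere. Capitals mark that exon in Tjp1-202, and in Tjp1-201 the bases that directly follow the shared lower-case end of exon 19 when the exon is skipped.
Tjp1-202: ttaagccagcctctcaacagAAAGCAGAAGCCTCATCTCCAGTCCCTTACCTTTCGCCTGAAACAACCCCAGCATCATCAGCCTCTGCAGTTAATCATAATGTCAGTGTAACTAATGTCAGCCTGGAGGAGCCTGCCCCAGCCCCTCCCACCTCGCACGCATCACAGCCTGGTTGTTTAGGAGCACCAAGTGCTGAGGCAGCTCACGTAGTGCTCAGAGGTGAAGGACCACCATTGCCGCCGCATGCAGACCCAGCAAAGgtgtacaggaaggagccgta
Tjp1-201: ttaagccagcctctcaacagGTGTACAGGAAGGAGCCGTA
The form with the exon made up 10.9%, 10.2%, 14.5%, 10.2% and 10.9% of Tjp1 in NPRA-/- libraries, against 9.18%, 11.8%, 17.5%, 13.1% and 11.9% in NPRA+/+ libraries. The form without it was the main one in all 10 libraries, and the genotypes overlapped (11.3% ± 1.80 in NPRA-/- and 12.7% ± 3.04 in NPRA+/+, SD, n = 5 each; exact permutation p = 0.444).

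Dsc2 was the member whose forms were least settled. Its main forms differ at the inner end: Dsc2-202 has the long a tail (902 codons), while Dsc2-201 has an additional exon and the short b tail (848 codons). Dsc2-201 made up 53.0%, 31.9%, 74.0%, 33.3% and 24.9% of Dsc2 in NPRA-/- libraries, against 32.0%, 20.8%, 53.6%, 50.3% and 23.3% in NPRA+/+ libraries. Either tail was the larger in some libraries of both genotypes, in the member with the lowest level of the set. Ctnna3-202, which begins 46527 bases before Ctnna3-201 and encodes the same protein, made up 33.0% of Ctnna3 in NPRA-/- library 231 and 41.4% in NPRA+/+ library 228, against 9.74% to 19.0% in the other 8 libraries. Those 2 libraries also had the lowest Ctnna3-201, at 5.99 FPKM in 231 and 5.79 FPKM in 228.

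Cdh2-202, a form that begins 139177 bases downstream and encodes 849 codons in place of 906, was at 12.1, 10.8, 13.5, 0.00735 and 13.7 FPKM in NPRA-/- libraries, against 8.84, 0, 0, 9.96 and 14.6 FPKM in NPRA+/+ libraries. It was listed at 0 in 2 NPRA+/+ libraries and nearly so in NPRA-/- library 240, while the sum of both forms in those 3 libraries, 108, 102 and 97.7 FPKM in 240, 230 and 242, lay within the range of the others. Jup-202, which encodes the same protein as Jup-201, made up 3.46% ± 0.803 of Jup in NPRA-/- and 4.90% ± 2.62 in NPRA+/+, and Pkp2-201, the only protein-coding form listed for Pkp2, 98.2% ± 0.373 of Pkp2 in NPRA-/- and 97.9% ± 0.691 in NPRA+/+ (SD, n = 5 each). Dsg2-203, a short form of 292 codons beside the full 1122, made up 3.29% ± 1.16 in NPRA-/- and 2.96% ± 1.13 in NPRA+/+.

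**Figure D3:**
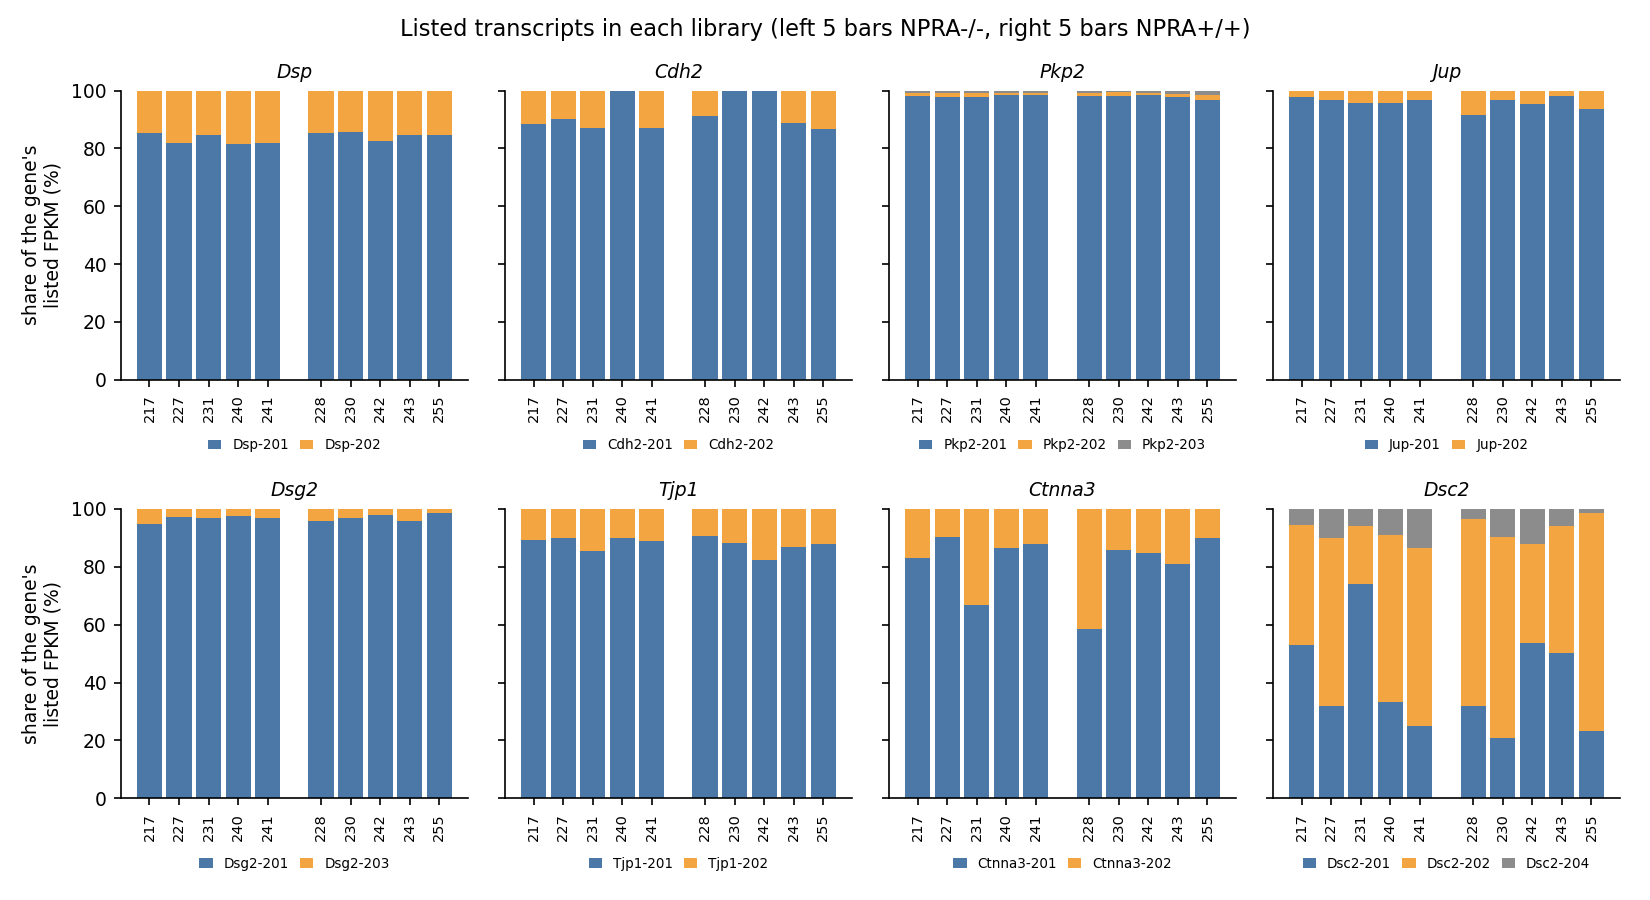
Share of each listed transcript in the summed FPKM of its gene (stacked bars, percent) in each library, NPRA-/- in the left 5 bars and NPRA+/+ in the right 5, for the 8 members with 2 or more listed transcripts. Dsp-202 stays between 14.3% and 18.5%, Cdh2-202 is missing in 240, 230 and 242, and Dsc2-201 ranges from 20.8% to 74.0%.

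Across the 10 libraries, Gja1 and Dsp varied together more closely than any other pair of disc genes. Libraries 240 and 241 were the highest for both and library 217 the lowest for both. Pearson's r of log2(FPKM + 1) was 0.88 (permutation p = 0.0010, adjusted over the 45 pairs 0.0468) and Spearman's rho 0.89 (permutation p = 0.0012, adjusted 0.0549), so the pair passed by r and not by rho. Without libraries 217 and 240, the farthest from the median of Gja1, r was 0.79, and leaving out 1 library at a time gave 0.84 to 0.90. The deviations from the genotype means had r = 0.89; within a genotype there were 5 libraries, too few for a correlation of their own. Atrial marker levels overlapped with this order in part, since Myl7 was at 140 FPKM in library 217 and at 0.263 and 0 FPKM in 240 and 241. Without the 4 libraries with Myl7 above 70 FPKM, an alternative chosen after the data were seen, r was 0.93 over 6 libraries (exact permutation p = 0.0111) and rho 0.89 (exact permutation p = 0.0333). Those 6 are few and still differed in Myl7, which was at 12.7 FPKM in NPRA-/- library 231 and 26.9 FPKM in NPRA+/+ library 243. The part of atrial content in the pair was not tested.

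Set against the 10763 other genes tested, Dsp ranked 6th by r with Gja1, and Gja1 ranked 4th by r with Dsp. Ahead of Dsp for Gja1 stood Tulp4 (r = 0.95), Tnfsf10 (0.94), Hlf (0.88), Tspan13 (0.88) and Myocd (0.88), and ahead of Gja1 for Dsp stood Otud7b (0.89), Tnfsf10 (0.88) and Prune2 (0.88), all named after their values were seen. Of the 45 pairs, 31 had r above 0 and the median r was 0.15. Gja1 and Pkp2 (r = 0.75), Cdh2 and Dsg2 (0.71), Dsp and Pkp2 (0.67) and Pkp2 and Jup (0.65) had unadjusted permutation p under 0.05, as did Tjp1 and Des with r = -0.68, and each had an adjusted p of 0.315. Without the 2 libraries farthest from the median, r was 0.49 for Gja1 and Pkp2, 0.78 for Cdh2 and Dsg2, 0.33 for Dsp and Pkp2, 0.37 for Pkp2 and Jup and -0.63 for Tjp1 and Des.

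**Figure D4:**
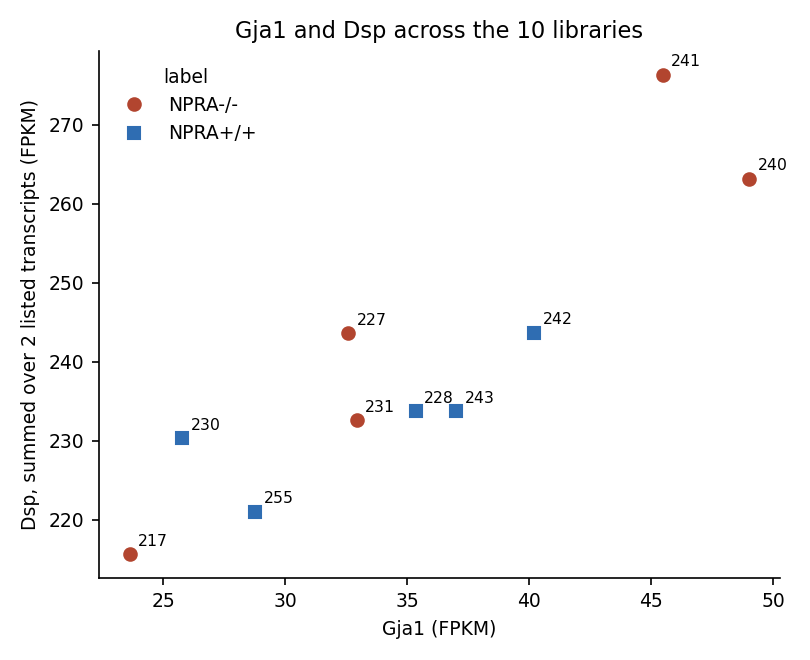
Summed FPKM of Dsp against FPKM of Gja1 in each library, with NPRA-/- as circles and NPRA+/+ as squares, numbered as in the labels. Libraries 240 and 241 stand at the upper right and 217 at the lower left, and the NPRA+/+ libraries lie between them.

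The start regions of these 2 genes are shown because their levels moved together. They are the 250 bases before the RefSeq start (GRCm38.p6, plus strand for both), chr10:56377050-56377299 for Gja1 and chr13:38151044-38151293 for Dsp; promoters of 6 of the 10 disc genes were matched. Both strands were searched for an AP-1 site (TGANTCA), a GC box (GGGCGG) and an E-box (CANNTG). Capitals mark the AP-1 match in Gja1 and the GC box matches in Dsp.
Gja1: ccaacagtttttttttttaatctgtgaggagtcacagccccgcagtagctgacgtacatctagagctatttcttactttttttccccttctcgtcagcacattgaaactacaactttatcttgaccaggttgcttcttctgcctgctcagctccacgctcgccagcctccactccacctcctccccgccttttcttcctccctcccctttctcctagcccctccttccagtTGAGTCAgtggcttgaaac
Dsp: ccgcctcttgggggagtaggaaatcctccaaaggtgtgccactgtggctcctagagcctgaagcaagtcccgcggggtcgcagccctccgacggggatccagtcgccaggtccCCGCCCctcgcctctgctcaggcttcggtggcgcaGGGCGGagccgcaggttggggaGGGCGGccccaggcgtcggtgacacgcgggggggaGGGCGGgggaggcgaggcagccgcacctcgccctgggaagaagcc
The windows differed in make-up, with 50% G and C for Gja1 and 72.4% for Dsp. Gja1 held 1 AP-1 match, 19 bases before the start, which overlaps its 1 E-box match, and 0 GC boxes. Dsp held 4 GC box matches, 137, 102, 80 and 45 bases before the start, and 0 matches to the other motifs. Over the 32851 mouse promoter windows of the same length, 6.75% held an AP-1 match, 32.7% a GC box and 66.2% an E-box. No searched motif was matched in both windows.

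Against close relatives in the same heart, the disc genes were in most cases the higher, by listed transcripts only. Alpha-catenin was the exception, and for Jup the libraries were divided. These 9 pairs were chosen by family after values were seen and compared over the 10 libraries with two-sided exact sign-flip tests of the log2 ratio, adjusted over the 9 pairs (adjusted p = 0.0022, except 0.0078 for Jup and Ctnnb1). Gja1 stood at 3.23 times Gja3, 3.23 times Gjc1, 6.20 times Gja4, a connexin of endothelial cells, and 30.7 times Gja5, the connexin of atria and conduction system, in 10 of 10 libraries each. Pkp2 stood at 5.91 times Pkp4, Dsp at 76.1 times the plakin Ppl and Des at 4.99 times Vim, the filament of non-muscle cells. Ctnna3 was lower than the general alpha-catenin Ctnna1 in all 10 libraries, at 11.3 ± 1.87 FPKM against 200.5 ± 10.9 FPKM (SD, n = 10), a 17.9-fold difference. Jup was higher than beta-catenin Ctnnb1 in 8 of 10 libraries. The exceptions were NPRA-/- libraries 217 and 227, where Ctnnb1 was at 38.9 and 36.4 FPKM, against 3.998 to 4.83 FPKM in the other 3 NPRA-/- libraries and 8.65 to 15.99 FPKM in NPRA+/+ libraries.

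From 6 lists of other disc genes, partners and linked pathways, no gene was called different between genotypes either. Of 83 list genes, 68 were listed and 67 tested. By log2 difference, 24 were higher and 43 lower in NPRA-/- libraries. Of all genes tested, 39.4% were higher, the share to set beside the counts of every list below. With median-of-ratios factors that share was 50.6%. With limma 0 were called (0.00929% of all genes were), and 3 of the 67 had an unadjusted p under 0.05, beside 594 of the 10764 genes tested (5.52%). In the adherens junction and area composita list, 7 of 12 were higher and 5 lower, with a median log2 difference of 0.0097 beside -0.029 over all genes. There Myzap, an area composita protein, was at 96.2 ± 12.7 FPKM in NPRA-/- and 88.8 ± 7.22 FPKM in NPRA+/+ and Nectin2, an adhesion receptor, was at 15.3 ± 1.58 FPKM in NPRA-/- and 14.4 ± 1.39 FPKM in NPRA+/+. Vcl, the actin linker vinculin, was at 28.3 ± 1.70 FPKM in NPRA-/- and 29.8 ± 1.19 FPKM in NPRA+/+, and Afdn, the afadin that binds nectins, at 17.1 ± 2.19 FPKM in NPRA-/- and 18.4 ± 2.50 FPKM in NPRA+/+ (SD, n = 5 each). Of 13 other desmosome and epithelial junction genes, 9 had no listed transcript (Pkp1, Pkp3, Dsg1a, Dsg3, Dsg4, Dsc1, Dsc3, Evpl and Cdh1), 1 was higher and 3 lower. The higher one was Perp, a desmosomal membrane protein, at 107 ± 10.7 FPKM in NPRA-/- and 106 ± 7.41 FPKM in NPRA+/+, and Tmem43 and Ppl had log2 differences of -0.15 and -0.066. Several of the 9 without a listed transcript are known from stratified epithelium, such as Dsg1a, Dsg3 and Evpl.

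Of 10 tested gap junction, tight junction and partner genes, 2 were higher and 8 lower, with a median of -0.052. Gja3 and Gja5 were the higher ones, with log2 differences of 0.13 (SE 0.13) and 0.11 (SE 0.15). Cldn5, the claudin of endothelial cells, had -0.25 (SE 0.16, limma adjusted p = 0.912) and Cgnl1 -0.14 (SE 0.13). Endothelial markers were lower in NPRA-/- libraries too, as given above, and the part of cell composition in these values was not tested. Among 8 disc-linked ion channel genes, 4 were higher and 4 lower. Scn4b, a beta subunit of the sodium channel, was at 3.31, 3.65, 3.996, 4.25 and 4.92 FPKM in NPRA-/- libraries, against 2.93, 3.25, 3.65, 2.54 and 2.33 FPKM in NPRA+/+ libraries. All 5 NPRA-/- values lay above the NPRA+/+ mean and the ranges overlapped at their ends; the log2 difference of 0.35 (SE 0.12) had an unadjusted limma p of 0.0123, an adjusted p of 0.833 and an exact permutation p of 0.0159. Fgf13, a channel partner, had 0.21 (SE 0.11), and Ank3, which encodes the anchor ankyrin-G, had -0.22 (SE 0.17).

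In the list of intermediate filament and cytoskeletal linkers, 7 of 25 were higher and 18 lower, with a median of -0.035; 13 were lower with median-of-ratios factors or without library 243, and 21 without library 255. Lims1, an adaptor of integrin adhesions, was at 27.3 ± 3.17 FPKM in NPRA-/- and 22.1 ± 3.997 FPKM in NPRA+/+ (SD, n = 5 each; log2 difference 0.30, SE 0.12, limma adjusted p = 0.893), and Synm, a desmin partner, had 0.18 (SE 0.14). Lmna, which encodes the nuclear lamins A and C, had -0.25 (SE 0.13), and Ilk, a partner of Lims1, -0.15 (SE 0.14). Of 8 tested readouts of Wnt and Hippo signalling, pathways that plakoglobin and the disc are known to touch, 3 were higher and 5 lower. Tead1, the DNA-binding partner of YAP, was at 6.63, 7.67, 3.65, 8.77 and 6.63 FPKM in NPRA-/- libraries, against 24.6, 8.47, 7.07, 8.45 and 20.5 FPKM in NPRA+/+ libraries. Libraries 228 and 255 stood apart in the NPRA+/+ group and the other 3 lay among the NPRA-/- values (log2 difference -0.82, SE 0.34, limma adjusted p = 0.893; exact permutation p = 0.0556). Ccn1, a target of the Hippo pathway, was at 26.8 ± 5.71 FPKM in NPRA-/- and 23.6 ± 5.64 FPKM in NPRA+/+, Tcf7l2 had a log2 difference of 0.11 (SE 0.18) and Wwtr1 one of -0.089 (SE 0.062).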

How the data were processed

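Poly(A) RNA was sequenced as stranded paired-end libraries, per the labels' protocols, and cutadapt, HISAT2, StringTie and the build mm10 are named in the submitters' processing notes; their versions and the annotation used are not stated there. The authors deposited 1 value per transcript and library, taken here as FPKM; no unit is named, and TPM, which differs by 1 factor per library, cannot be told apart, so rescaling was among the alternatives. The mean of 1 genotype reached 0.5 FPKM for all 22157 listed transcripts, so the table had been selected on the groups; depth is unknown, and precision comes from the spread between libraries alone.

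Of the transcripts, 22107 matched GENCODE vM21 (21011 with the same version). FPKM was summed per gene symbol and used as log2(FPKM + 1), which understates differences of low genes. Genes and transcripts with a group mean of 1 FPKM or more in at least 1 genotype were compared, 5 libraries against 5, with limma 3.58.1 in R 4.3.3 (empirical Bayes with trend, Benjamini-Hochberg adjustment over the whole table at 0.05) after the code had been tested on simulated data. A single value was tested by exact two-sided permutation of the 126 distinct splits (smallest possible p 0.00794), and neighbouring levels with sign-flip tests, whose smallest p is 0.00195. Correlations used 100000 permutations. The labels name no batch, and p-values measure the spread between these libraries only. Alternatives were 2 other pseudocounts, no floor or a floor of 5 FPKM, 3 scalings, other empirical Bayes settings, array weights, the most abundant transcript of each gene, and leaving out libraries. The members and gene lists were chosen with earlier results of these data known. Named were all members with their listed transcripts and, from each list, called genes and the 2 with the smallest p in each direction; 1 gene that this picks is not reported here. Promoter sequences are from RefSeq, transcript sequences from GENCODE. The remaining steps ran in Python 3.11.15 (scipy 1.17.1, numpy 2.4.6, pandas 2.3.3; figures in matplotlib 3.10.9).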

Additional observations from a re-analysis of the deposited data

Results flagged for a closer look

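Among 56 groups of 5 libraries checked for a value apart from the others, 4 had an extreme library whose gap to its nearest neighbour passed Dixon's criterion at the 95% level; chance gives about 1 in 20. Cdh2-202 was at 0.00735 FPKM in NPRA-/- library 240, against 10.8 to 13.7 FPKM in the other NPRA-/- libraries. Dsp-201 was at 187 FPKM in NPRA+/+ library 255, against 197 to 201 FPKM in the other NPRA+/+ libraries. In NPRA+/+ library 228, Jup-201 was at 29.6 FPKM, against 34.6 to 35.9 FPKM in the others of its genotype. Ctnna3-202 was at 4.09 FPKM in the same library 228, against 1.11 to 1.90 FPKM in the others.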

How the results depend on the processing

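No paired analysis was possible because the mouse numbers in the labels are unique and the genotypes share none. Of 630 recomputed differences and shares, 585 kept their direction, 45 changed it and 0 passed the adjusted threshold; 0 disc genes and 0 disc transcripts were called under any alternative. Unadjusted limma p fell under 0.05 for Cdh2 with median-of-ratios factors (0.0339) and without library 255 (0.0236), and for Ctnna3 without library 231 (0.0072), and under no other alternative run. The cause of the changes below was not tested. Over the whole table, 0 genes were called with median-of-ratios factors, with quantile normalization or without trend, 2 with the most abundant transcript, 3 without the 4 libraries with Myl7 above 70 FPKM and 0 to 2 with 1 library left out; 3 transcripts were called at a floor of 5 FPKM, 22 without those 4 libraries and 2 to 10 with 1 library left out. Of the adherens list, 8 genes were lower without those 4 libraries. Among log2 differences that changed sign, Jup was 0.016 (median-of-ratios), 0.0025 (quantile), 0.10 (without the 4 libraries) and 0.0030 (most abundant transcript); Dsc2 was -0.040 without the 4 libraries and -0.21 with the most abundant transcript. Des was -0.011 at the same sum, -0.042 with quantile normalization, -0.0053 with array weights and -0.019 without the 4 libraries. Jup-201 was -0.0096 at the same sum and -0.0026 with array weights. Ctnna3-202 was 0.010 with a pseudocount of 0.1, 0.0099 with median-of-ratios factors, 0.029 with quantile normalization and 0.0067 with array weights. Without the 4 libraries, Cdh2-202 was -0.99, against 0.86 with all libraries, and Tjp1-202 0.014, against -0.14. With 1 library left out, the gene differences ran from 0.053 to 0.13 for Cdh2, 0.12 to 0.29 for Ctnna3, 0.035 to 0.12 for Dsp, 0.022 to 0.11 for Pkp2, -0.094 to -0.019 for Tjp1, -0.0085 to 0.25 for Gja1, -0.059 to 0.022 for Jup, -0.030 to 0.15 for Dsg2, -0.021 to 0.13 for Dsc2 and -0.020 to 0.041 for Des. Those of transcripts ran from -0.0074 to 0.081 for Cdh2-201, -0.045 to 0.043 for Jup-201, -0.039 to 0.15 for Dsg2-201, -0.12 to 0.19 for Ctnna3-202 and -0.091 to 0.010 for Tjp1-201. Shares, in percentage points, ran from -0.23 to 0.0090 for Pkp2-202, -0.18 to 0.61 for Dsg2-203, -0.23 to 12.04 for Dsc2-201 and -6.98 to 2.35 for Ctnna3-202. With unknown depth and 5 libraries a genotype, changes inside the intervals given cannot be seen.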
